A study of Mus musculus with 16 samples.

Results

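Collagens and the structural proteins around them form the extracellular matrix, the fibrous scaffold that host fibroblasts lay down in a tumour. The genes described here are 48 collagen, elastic fibre, proteoglycan, adhesive glycoprotein, basement membrane and matrix crosslinking genes of the mouse, chosen by symbol from the 24681 symbols of a table of RNA sequencing counts. All 48 had a value in every library, and all 48 passed the filter on low counts, so no member was lost. They were measured in 16 whole tumours, 1 per mouse. Each tumour had been grown by injecting AU565(pv), a HER2-positive line of human breast cancer cells, into a mammary fat pad of a SCID mouse. SCID hosts lack mature T and B lymphocytes and keep their macrophages, neutrophils and natural killer cells. Because the counts belong to mouse genes while the cancer cells are human, the values mainly describe host tissue. How many human reads were counted for well-conserved genes such as collagens was not measured.

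The 4 groups held 4 mice each, all with the same xenograft and all injected intraperitoneally. Vehicle mice received D5W in place of panobinostat and PBS in place of trastuzumab. Trastuzumab mice received 10 mg/kg of this antibody against HER2 together with D5W. Panobinostat mice received 15 mg/kg of this inhibitor of histone deacetylases on days 0 and 1 together with PBS. Combination mice received both drugs at these doses, and every tumour was harvested on day 2. The labels place the trastuzumab dose on day 0 in the protocol and on day 1 in the design text, so its time to harvest is uncertain. The design asks how each drug alone, and the pair given together, alters gene expression in the host tissue of the tumour.

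In the textbook picture, fibroblasts secrete procollagen chains that assemble into triple helices. Proteins such as procollagen C-endopeptidase enhancer (Pcolce) speed the removal of their end domains, small leucine-rich proteoglycans such as fibromodulin (Fmod) bind the growing fibrils, and lysyl oxidases crosslink them. Elastin (Eln) is laid onto fibrillin microfibrils to form elastic fibres. Type IV collagen, laminins, nidogens (Nid1, Nid2) and perlecan (Hspg2) build the thin basement membranes beneath epithelium and around vessels, muscle and fat cells. Fibronectin (Fn1), periostin (Postn), tenascins (Tnc, Tnxb) and thrombospondins link cells to this scaffold and are often abundant in tumour stroma.

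Promoter sequences are shown for the members that fell with panobinostat, since that is the change the results turn on. Of the 48 members 31 matched the RefSeq promoter table (GRCm38.p6), among them 4 of the 6 that fell; Eln and Mfap4 did not match. Each line gives 250 bases ending just before the RefSeq start, 5′ to 3′ on the gene's own strand. The Col1a2 and Pcolce windows lie inside the GENCODE bounds of these genes, given below, and not before them. The Nid1 window runs past its GENCODE start. Capitals mark the searched motifs on either strand: the CCAAT box (CCAAT), the GC box (GGGCGG) and the TATA box (TATAAA). No marked matches overlap.
Fmod, chr1:134037004-134037253, plus strand: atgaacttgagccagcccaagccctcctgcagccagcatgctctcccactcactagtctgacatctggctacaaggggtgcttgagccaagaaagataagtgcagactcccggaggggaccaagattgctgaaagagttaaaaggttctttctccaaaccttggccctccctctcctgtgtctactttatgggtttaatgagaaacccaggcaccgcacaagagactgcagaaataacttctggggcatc
Col1a2, chr6:4505368-4505617, plus strand: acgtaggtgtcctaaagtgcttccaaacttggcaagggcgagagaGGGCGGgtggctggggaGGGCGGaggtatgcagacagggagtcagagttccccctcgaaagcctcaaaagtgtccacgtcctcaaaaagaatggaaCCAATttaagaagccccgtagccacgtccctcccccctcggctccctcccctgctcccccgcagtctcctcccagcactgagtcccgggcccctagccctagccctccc
Pcolce, chr5:137611405-137611654, minus strand: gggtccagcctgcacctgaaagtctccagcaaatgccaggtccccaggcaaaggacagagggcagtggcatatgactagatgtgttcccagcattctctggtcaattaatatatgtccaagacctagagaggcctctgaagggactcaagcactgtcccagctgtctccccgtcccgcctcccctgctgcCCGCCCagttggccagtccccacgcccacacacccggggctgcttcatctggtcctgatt
Nid1, chr13:13437352-13437601, plus strand: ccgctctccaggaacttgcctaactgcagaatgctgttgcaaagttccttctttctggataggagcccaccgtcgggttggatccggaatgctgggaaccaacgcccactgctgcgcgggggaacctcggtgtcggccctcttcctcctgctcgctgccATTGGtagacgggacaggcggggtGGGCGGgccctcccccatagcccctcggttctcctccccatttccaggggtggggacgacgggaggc
The Fmod window held none of these motifs. The Col1a2 window held 1 CCAAT box and 2 GC boxes, the Pcolce window 1 GC box, and the Nid1 window 1 CCAAT box and 1 GC box. Of the 31 matched members, 12 had a CCAAT box in any of their windows, 20 a GC box and 5 a TATA box. Among 32851 promoters of the same length, 33.8% held a CCAAT box, 32.7% a GC box and 12.4% a TATA box. These shares count promoters, while the members were counted as genes, which can have more than 1 promoter, so they are not like for like. These matches are a description of the letters and show no binding.

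Collagen I and III dominated the measured matrix. Levels between genes were compared as CPM (counts per library total, scaled by TMM factors) per kilobase of exon, mean ± SD over the 4 vehicle libraries. Col3a1 stood highest at 892 ± 240.2 CPM per kb, followed by Col1a1 at 753 ± 60.7 and Col1a2 at 367 ± 62.4. Col3a1 encodes the chain of type III collagen, and Col1a1 and Col1a2 encode the chains of type I collagen. The order of Col3a1 and Col1a1 was within their spread, and both stood above Col1a2 by more than its SD. The next highest were lumican (Lum) at 277 ± 81.2, biglycan (Bgn) at 239.9 ± 10.4 and Postn at 235 ± 78.2, which overlapped one another. The lowest were the laminin chain gene Lama2 at 2.41 ± 0.639, Nid2 at 5.02 ± 0.574 and versican (Vcan), a large aggregating proteoglycan, at 8.20 ± 2.16. Counts per library of single members ran from 88 to 74719.

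**Figure D1:**
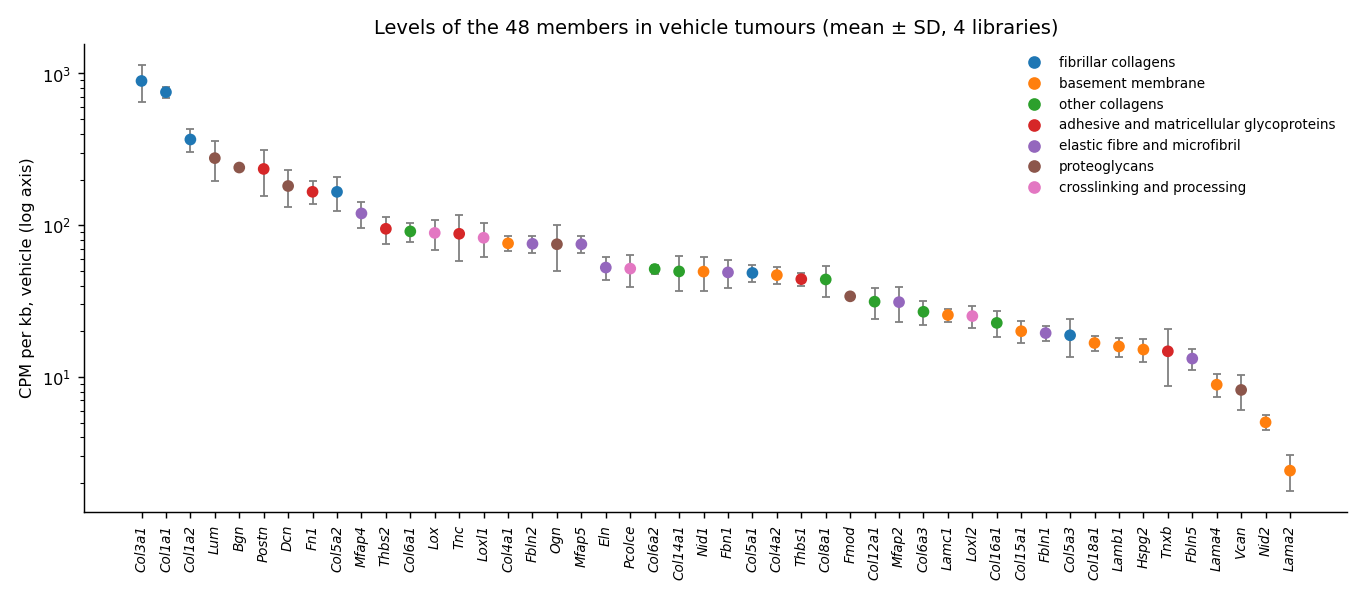
Level of each of the 48 members in vehicle tumours, ordered from high to low and coloured by role class. The vertical axis is CPM per kilobase of exon on a log axis, points are means and bars are SD over 4 libraries. Fibrillar collagens take the highest places, from Col3a1 at 892 CPM per kb, and Lama2 is lowest at 2.41.

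The members together took 3.69% ± 0.540 of all counts in vehicle tumours, 3.31% ± 0.653 with trastuzumab, 2.96% ± 0.641 with panobinostat and 2.86% ± 0.386 with the combination (SD, n = 4 each). The 4 groups overlapped, with vehicle libraries from 2.91% to 4.07%. Col1a1, Col1a2 and Col3a1 alone made up 1.78% ± 0.256 of vehicle counts and 1.21% ± 0.144 of combination counts. Some libraries stood apart in most classes. Panobinostat mouse 7 held 3.79% of its counts in members, against 2.41% to 3.14% in the other panobinostat mice. Trastuzumab mouse 12 held 2.46%, against 3.35% to 4.05% in its group. Vehicle mouse 29 held 2.91%, against 3.74% to 4.07% in the other vehicle mice, and was the lowest vehicle library in every role class. Total counts ran from 4848244 to 8140782 per library, and replicates differed by more than sampling noise.

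Panobinostat lowered 6 of the 48 members when its 8 libraries, with or without trastuzumab, were set against the 8 libraries without it. These were Fmod, Eln, microfibril-associated protein 4 (Mfap4), Col1a2, Pcolce and Nid1. A gene was called when its edgeR quasi-likelihood p, adjusted by Benjamini-Hochberg over all 15610 genes tested, was under 0.05. The 6 members are 12.5% of 48, beside 0.942% of all tested genes called lower in this comparison. No member was called higher, also at an unadjusted p under 0.05 and by DESeq2, beside 2.08% of all tested genes called higher by edgeR. A negative log2 change was found for 42 of 48 members, with a median of -0.25, beside 7887 of 15610 tested genes with a median of 0.00. At an unadjusted p under 0.05, 20 members were lower and 0 higher, beside 937 lower and 1171 higher of the 15610 tested genes.

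Fmod, the fibromodulin gene, lies on mouse chromosome 1 at 134037254 to 134048277 (mm10), and its exons overlap no other gene. Values are given throughout in the order of vehicle mice 3, 6, 21 and 29, trastuzumab mice 12, 15, 20 and 24, panobinostat mice 4, 7, 8 and 13, and combination mice 2, 11, 16 and 22. The Fmod levels were 116, 107, 116 and 110.0 CPM in the vehicle mice and 84.3, 100.5, 110.2 and 148 CPM in the trastuzumab mice. They were 83.5, 80.6, 82.7 and 54.6 CPM with panobinostat and 78.3, 55.5, 63.4 and 52.8 CPM with the combination. Every library with panobinostat was below every library without it. Fmod was the only member with no overlap of the 8 and 8 libraries in this direction (2.08% of members, beside 0.243% of all tested genes). The log2 change was -0.70 (SE 0.12, ratio 0.616, edgeR adjusted p = 0.00352). The call held in all 16 fits that each left out 1 library, with adjusted p up to 0.0101.

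Eln encodes tropoelastin, the rubber-like core of elastic fibres. Its levels were 406, 393, 532 and 371 CPM in vehicle and 272, 308, 403 and 709 CPM in trastuzumab tumours. They were 217, 301, 246 and 146 CPM with panobinostat and 273, 203, 188 and 127 CPM with the combination. Every panobinostat and combination library was below every vehicle library, while trastuzumab mouse 12 lay in the range of the libraries with panobinostat. The log2 change was -1.0 (SE 0.20, ratio 0.500, edgeR adjusted p = 0.0104), the largest of the members in this comparison. Eln lies on chromosome 5 at 134702593 to 134747323, and 3.3% of its exon bases are shared with the antisense gene Gm30003. Libraries made with the kit named in the labels do not keep strand, so those reads could not be told apart.

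Mfap4, whose product binds elastic fibres and collagen, had 231, 229, 284 and 175 CPM in vehicle and 111, 191, 217 and 344 CPM in trastuzumab tumours. With panobinostat it had 107, 159, 139.5 and 99.9 CPM, and with the combination 157, 93.4, 106 and 128 CPM. As for Eln, no library with panobinostat reached the vehicle range, and trastuzumab mouse 12 lay among them. Mfap4 changed by a log2 value of -0.85 (SE 0.19, ratio 0.556, edgeR adjusted p = 0.0187). Trastuzumab mouse 24 was the highest library for Eln, Mfap4 and Fmod. Without it the log2 changes were -0.81, -0.68 and -0.61, and all 3 calls held. Mfap4 lies on chromosome 11 at 61485431 to 61488900 and shares 4.63% of its exon bases with Mapk7 on the other strand.

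Among the fibrillar collagens, Col1a2 was the one called. Its levels were 4481, 5109, 5161 and 3495 CPM in vehicle, 2967, 3833, 4426 and 5431 CPM with trastuzumab, 2462, 4039, 3226 and 2373 CPM with panobinostat and 3371, 2415, 2962 and 2567 CPM with the combination. The combination libraries were all below the vehicle ones, and the 8 and 8 libraries overlapped. The log2 change was -0.58 (SE 0.14, edgeR adjusted p = 0.0360). Col1a2 lies on chromosome 6 at 4504814 to 4541544 and shares no exon with another gene. Its partner chain Col1a1 had 5364, 4573, 5198 and 4631 CPM in vehicle and 3759, 4433, 4213 and 3379 CPM with panobinostat. It had 3700.0, 4302, 5268 and 6061 CPM with trastuzumab and 3862, 3369, 4767 and 2715 CPM with the combination. The panobinostat libraries were below all vehicle libraries, and the trastuzumab libraries spread over both. The Col1a1 log2 change of -0.36 (SE 0.12) was not called (adjusted p = 0.159), nor was that of Col3a1 (-0.40, SE 0.15, adjusted p = 0.205). Col1a1 was called under 1 of 7 alternative settings, over which its log2 change ran from -0.48 to -0.29. Over the 6 fibrillar collagens the median was -0.35, 5 were negative, and Col5a3, a minor type V chain, was at 0.04.

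Pcolce had 159.7, 266, 178 and 187 CPM in vehicle, 133, 146, 170.3 and 180.2 CPM with trastuzumab, 103, 173, 120.4 and 113 CPM with panobinostat and 129.7, 106, 113 and 143 CPM with the combination. Panobinostat mouse 7 was the one panobinostat library within the vehicle range. Pcolce changed by a log2 value of -0.50 (SE 0.13, edgeR adjusted p = 0.0406). Pcolce lies on chromosome 5 at 137605103 to 137613784 and shares 2.93% of its exon bases with Fbxo24 and Gm36266. Of the 3 lysyl oxidase genes none was called: Lox gave -0.36 (SE 0.18, adjusted p = 0.402), Loxl1 -0.31 (SE 0.11, adjusted p = 0.204) and Loxl2 -0.06 (SE 0.15, adjusted p = 0.925). Lox stood at 440.0, 505, 467 and 287 CPM in vehicle, 204, 361, 383 and 358 CPM with trastuzumab, 273, 399, 446 and 223 CPM with panobinostat and 303, 168, 299 and 241 CPM with the combination. The groups overlapped, and 2 of the combination libraries reached the vehicle range.

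Most basement membrane genes had log2 changes near 0, and Nid1 was the one called. Nid1, the nidogen that ties laminin to type IV collagen, had 259, 466, 326 and 321 CPM in vehicle, 293, 293, 270.3 and 308 CPM with trastuzumab, 154, 335, 177 and 214 CPM with panobinostat and 216, 233, 179.8 and 198 CPM with the combination. All combination libraries were below all vehicle and trastuzumab libraries, and panobinostat mouse 7 was the one library with panobinostat inside their range. For Nid1 the log2 change was -0.57 (SE 0.14, edgeR adjusted p = 0.0414). Nid1 lies on chromosome 13 at 13437551 to 13512269 and shares 2.06% of its exon bases with the antisense gene Gm48682. The type IV collagen gene Col4a1 had 584, 596, 613 and 472 CPM in vehicle, 494, 562, 469 and 524 CPM with trastuzumab, 481, 622, 393 and 529 CPM with panobinostat and 587, 513, 590.2 and 352 CPM with the combination. These groups overlapped throughout, with a log2 change of -0.08 (SE 0.11, adjusted p = 0.844), which ran from -0.13 without panobinostat replicate 7 to -0.01 without combination replicate 22. Over the 11 basement membrane genes the median was -0.08, and apart from Nid1 they ran from -0.37 for Lama2 (adjusted p = 0.381) to 0.09 for Col18a1 (adjusted p = 0.807).

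The calls of Col1a2, Pcolce and Nid1 were less steady than those of Fmod, Eln and Mfap4. Leaving out 1 library at a time ended the call of Col1a2 in 11 of 16 fits (adjusted p up to 0.0931), that of Pcolce in 12 (up to 0.0951) and that of Nid1 in 14 (up to 0.0857). The count of 6 became 3 without vehicle replicate 6 or 21, trastuzumab replicate 15, 20 or 24, panobinostat replicate 4, 8 or 13, or combination replicate 11. It became 10 without panobinostat replicate 7, when Col6a3, Col14a1, Col16a1 and Fbln5 were called as well.

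**Figure D2:**
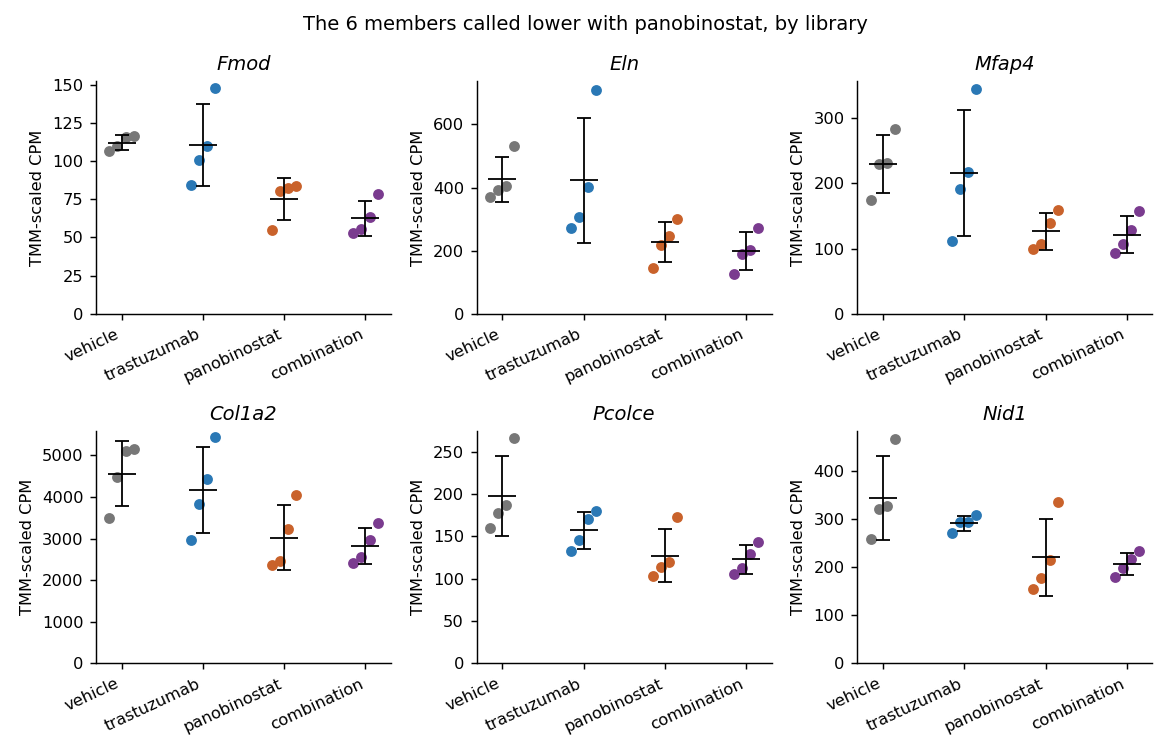
TMM-scaled CPM of the 6 members called lower with panobinostat, with 1 point per library in the 4 groups and the mean and SD of 4 as a bar; the vertical axes start at 0. All 8 Fmod points with panobinostat, at 52.8 to 83.5 CPM, lie below the 8 without it, at 84.3 to 148 CPM; the other 5 genes overlap.

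The collagens outside the fibrillar and basement membrane classes had negative values throughout. All 7 members of types VI, VIII, XII, XIV and XVI were negative, with a median of -0.39 and 0 called by edgeR, while 5 had an unadjusted p under 0.05. Col16a1, a fibril-associated collagen gene, had the smallest p of these. It stood at 165, 157, 179 and 112 CPM in vehicle, 112, 165, 154 and 204 CPM with trastuzumab, 90.3, 146, 119 and 85.0 CPM with panobinostat and 133, 104, 108 and 87.6 CPM with the combination. The groups overlapped, with a log2 change of -0.51 (SE 0.14, adjusted p = 0.0658). Col6a3, a chain of the beaded filament collagen VI, gave -0.36 (SE 0.13, adjusted p = 0.183), from 321 ± 58.9 CPM in vehicle and 262 ± 28.8 with trastuzumab to 233 ± 73.2 with panobinostat and 219.6 ± 23.1 with the combination (SD, n = 4 each). DESeq2 called Col16a1.

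All 8 elastic fibre and microfibril genes were negative, with a median of -0.34, 2 of them called (Eln and Mfap4). Fbln5, which encodes an assembly factor of elastic fibres, missed the threshold at -0.45 (SE 0.12, adjusted p = 0.0588). Mfap2 gave -0.44 (SE 0.15, adjusted p = 0.149), while fibrillin-1 (Fbn1) gave -0.23 (SE 0.18, adjusted p = 0.673) and Fbln2, a basement membrane-associated fibulin, -0.09 (SE 0.11, adjusted p = 0.830). In Fbn1, 20.1% of exon bases are shared with Gm9913 on the other strand. Of the 6 proteoglycans 5 were negative and 1, Fmod, was called. Lum and Ogn gave -0.46 (SE 0.17, adjusted p = 0.210) and -0.45 (SE 0.17, adjusted p = 0.212), decorin (Dcn) -0.37 (SE 0.18, adjusted p = 0.382) and Bgn -0.27 (SE 0.09, adjusted p = 0.160), and Vcan was at 0.02.

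The adhesive glycoproteins held the 2 highest log2 changes of all members, in Fn1 and Tnc, and neither was called. Fn1 had 1846, 2289, 2111 and 1510.5 CPM in vehicle, 1209, 1863, 1568 and 2328 CPM with trastuzumab, 1619, 3052, 2048 and 1703 CPM with panobinostat and 2441, 1759.6, 2848 and 1923 CPM with the combination. Its groups overlapped, and its log2 change of 0.24 (SE 0.16) was not called (adjusted p = 0.583). Without panobinostat replicate 7 it was 0.13. Tnc, the tenascin of wounds and tumour stroma, had 816, 613, 904 and 394 CPM in vehicle, 335, 743, 543 and 903 CPM with trastuzumab, 594, 1068, 829 and 456 CPM with panobinostat and 963, 487, 935 and 560.4 CPM with the combination. It varied widely within every group and gave a log2 change of 0.17 (SE 0.23, adjusted p = 0.849), which ran from 0.06 without panobinostat replicate 7 or trastuzumab replicate 12 to 0.28 without trastuzumab replicate 24.

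Postn had 2489, 2239, 2409 and 1034 CPM in vehicle, 1033, 1975, 1693 and 1791 CPM with trastuzumab, 1332, 2042, 2591 and 1647 CPM with panobinostat and 1985, 1541, 1538 and 1873 CPM with the combination. It gave a log2 change of 0.00 (SE 0.18, adjusted p = 1.00), whose sign changed with the scaling. Tnxb, a tenascin of loose connective tissue, had 109.6, 284, 169 and 157 CPM in vehicle, 106, 129, 99.6 and 112 CPM with trastuzumab, 66.1, 239, 78.8 and 127 CPM with panobinostat and 90.1, 124, 87.4 and 158 CPM with the combination. Vehicle mouse 6 and panobinostat mouse 7 were its highest libraries, and its change was -0.23 (SE 0.24, adjusted p = 0.778). Without panobinostat replicate 7 it was -0.47, and without vehicle replicate 6 it was -0.07. The class median was -0.08, with 4 of 6 negative and 0 called by edgeR, also at an unadjusted p under 0.05.

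**Figure D3:**
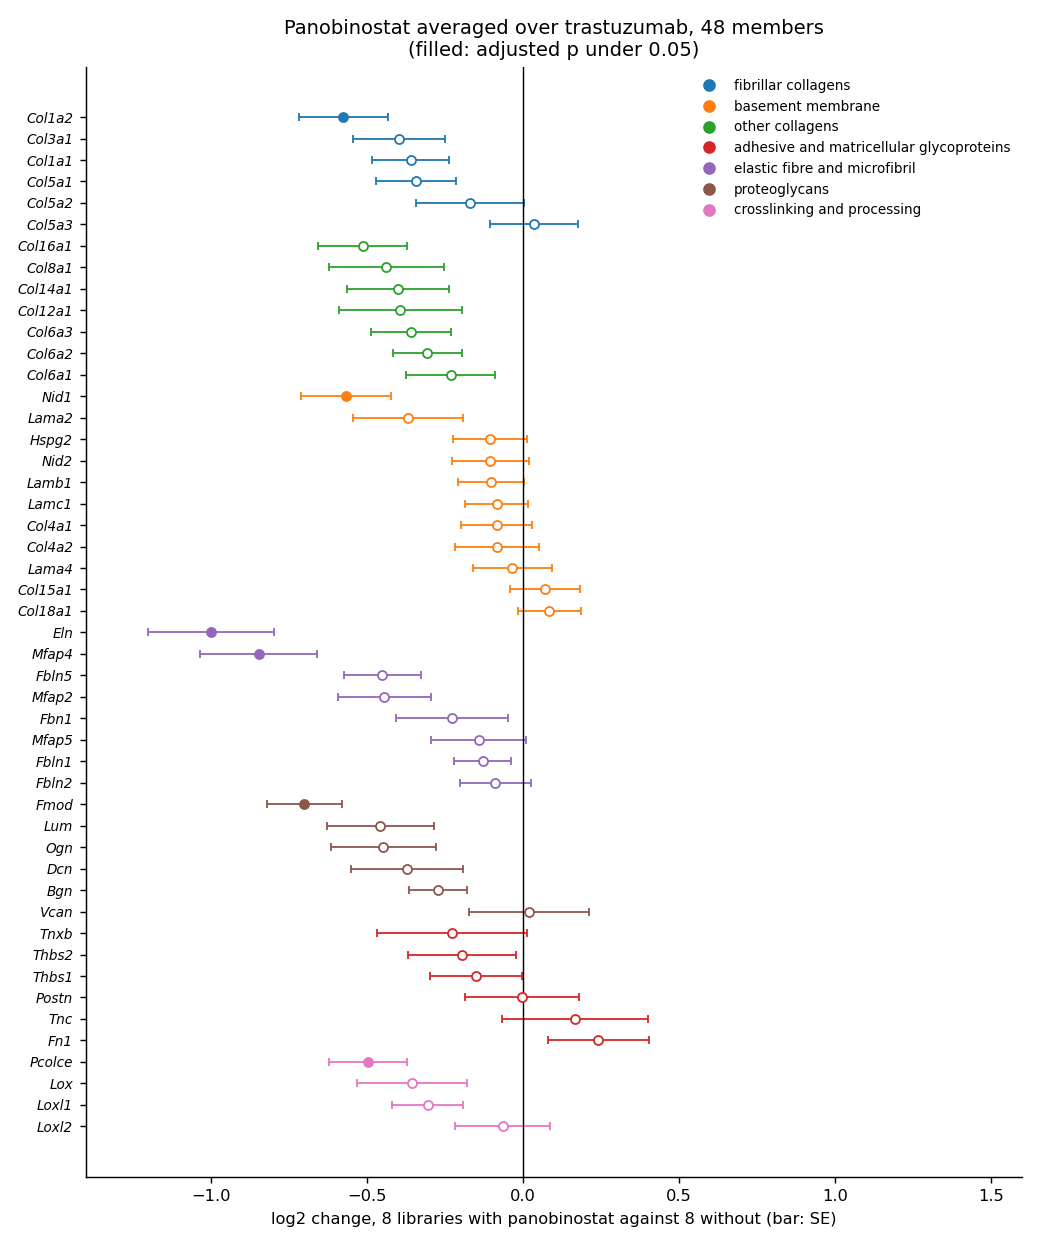
Log2 change of each of the 48 members for 8 libraries with panobinostat against 8 without, grouped by role class, with SE as bars; filled points have an adjusted p under 0.05. The 6 filled points lie between -1.0 (Eln) and -0.50 (Pcolce), and 42 of 48 points lie below 0, with Fn1 highest at 0.24.

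Panobinostat had 2 separate tests in this design: alone against vehicle, and added to trastuzumab. These comparisons share no library. In both, 37 of 48 members (77.1%) had a negative log2 change, beside 29.6% of all tested genes, and 5 members were positive in both (Col5a3, Col15a1, Col18a1, Fn1 and Tnc). The remaining 6 had opposite signs. Over members the values of both comparisons had Pearson's r = 0.759 and Spearman's rho = 0.737, beside r = 0.476 over all tested genes. These are descriptions across genes, which share the libraries within each comparison and are not independent.

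Panobinostat alone gave no called member by edgeR, DESeq2 or limma voom, beside 0.0512% of all tested genes called lower by edgeR. The median was -0.29, and 43 of 48 were negative. At an unadjusted p under 0.05, 16 members were lower and 0 higher, beside 548 lower and 717 higher of 15610 tested genes. Pcolce gave -0.64 (SE 0.18, adjusted p = 0.193), Fmod -0.57 (SE 0.17, adjusted p = 0.219), Mfap4 -0.86 (SE 0.27, adjusted p = 0.256), Eln -0.90 (SE 0.29, adjusted p = 0.274), Nid1 -0.64 (SE 0.20, adjusted p = 0.286) and Col1a2 -0.59 (SE 0.20, adjusted p = 0.344). Without panobinostat replicate 7 the median was -0.42.

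Panobinostat added to trastuzumab lowered 1 member, Fmod, beside 0.16% of all tested genes called lower. Fmod stood at 111 ± 26.9 CPM with trastuzumab and at 62.5 ± 11.4 CPM with the combination (SD, n = 4 each). The log2 change was -0.82 (SE 0.17, edgeR adjusted p = 0.0421). This call ended under total-count scaling, under limma voom and when only these groups were fitted, with adjusted p up to 0.185. Leaving out any one of vehicle replicates 3, 21 and 29, trastuzumab replicates 15, 20 and 24, panobinostat replicates 4, 7 and 8, and combination replicates 11 and 22 also ended it (adjusted p up to 0.156). Eln gave -1.10 (SE 0.29, adjusted p = 0.108), Mfap4 -0.83 (SE 0.27, adjusted p = 0.231) and Nid1 -0.49 (SE 0.20, adjusted p = 0.440). The median of the 48 was -0.19, with 37 negative, and that of the adhesive glycoproteins 0.07. The median of the 48 was -0.31 without trastuzumab replicate 12, -0.30 without combination replicate 2, -0.11 without combination replicate 11 and -0.09 without trastuzumab replicate 24.

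**Figure D4:**
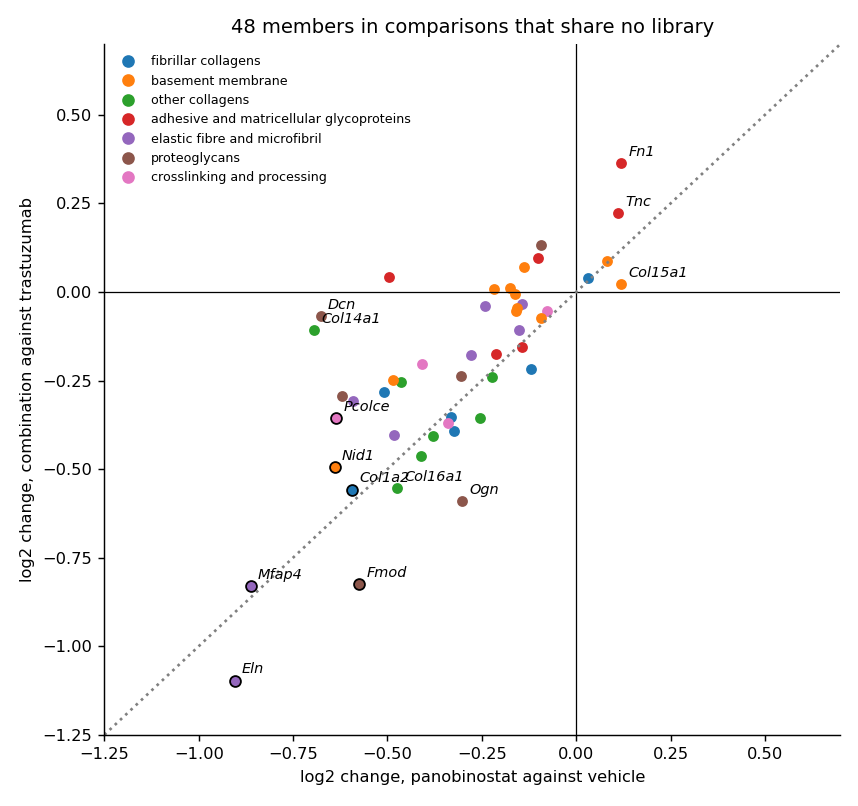
Log2 change of each of the 48 members for panobinostat against vehicle (horizontal axis) and for the combination against trastuzumab (vertical axis), which share no library. Of the 48 points 37 lie below 0 on both axes and 5 above 0 on both; Eln is lowest on both axes.

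The combination lowered 1 member against vehicle, Fmod, beside 0.5% of all tested genes called lower. Fmod stood at 112 ± 4.75 CPM in vehicle (SD, n = 4). Its log2 change was -0.85 (SE 0.17, edgeR adjusted p = 0.0121), and it was called without each library in turn (adjusted p up to 0.0486). Of 48 members 45 were negative, with a median of -0.39. At an unadjusted p under 0.05, 21 members were lower and 0 higher, beside 930 lower and 1224 higher of 15610 tested genes. Just short of the threshold lay Eln at -1.11 (SE 0.29, adjusted p = 0.0547) and Pcolce at -0.69 (SE 0.18, adjusted p = 0.0550). They were followed by Loxl1 at -0.59 (SE 0.16, adjusted p = 0.0674), Nid1 at -0.73 (SE 0.20, adjusted p = 0.0755), Mfap4 at -0.92 (SE 0.27, adjusted p = 0.0870) and Col1a2 at -0.69 (SE 0.20, adjusted p = 0.0941). For each of these genes every combination library was below every vehicle library. The same held for Fmod, Col3a1, Col5a1, Col6a2, Bgn and Ogn, so it was not particular to the genes nearest the threshold. The share of all tested genes with no overlap of these 4 and 4 libraries was not counted. Lox gave -0.75 (SE 0.25, adjusted p = 0.158). DESeq2 called 8 members, adding Col1a2, Col3a1, Eln, Loxl1, Mfap4, Pcolce and Nid1. The calls of DESeq2 over all tested genes in the combination against vehicle are not given here, so its higher count is not a result about the members. The 2 methods differ in how many genes they call: in another comparison, panobinostat against vehicle, DESeq2 called 154 of 15610 tested genes and edgeR 30. The edgeR count became 3 without trastuzumab replicate 12 or 24 or combination replicate 2, 2 without panobinostat replicate 13 and 4 without panobinostat replicate 7.

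Trastuzumab alone called no member, beside 0% of all tested genes in either direction. By edgeR 1 member was lower at an unadjusted p under 0.05, Loxl1, beside 232 of 15610 tested genes. The Loxl1 log2 change was -0.39 (SE 0.16, adjusted p = 1.00), and DESeq2 and limma voom called 0 members. Of the 48 members 42 were negative, with a median of -0.18, beside 7734 of 15610 tested genes with a median of 0.00. The members' median was -0.29 without trastuzumab replicate 24 and -0.11 without trastuzumab replicate 12 or vehicle replicate 6. Fmod gave -0.02 (SE 0.17), Eln -0.01 (SE 0.28) and Mfap4 -0.09 (SE 0.26), with adjusted p = 1.00 for each. Averaged over panobinostat, trastuzumab called 0 members (0% of all tested genes lower). At an unadjusted p under 0.05, 4 members were lower, beside 305 of 15610 tested genes. The 4 members were Loxl1, Col5a3, Lox and Loxl2, and DESeq2 called 0. Adding trastuzumab to panobinostat also called 0 members (0% of all tested genes), with 0 at an unadjusted p under 0.05 and 0 by DESeq2, and a median of -0.06. That median changed sign with the libraries used: it was 0.11 without panobinostat replicate 7, and ran from -0.13 (without panobinostat replicate 13) to 0.00 (without combination replicate 11) when each other library was left out. The interaction of the drugs called 0 members (0% of all tested genes), with 0 at an unadjusted p under 0.05 and 0 by DESeq2. Its smallest p among members was 0.0886, for Col14a1 (log2 0.59, SE 0.33, adjusted p = 1.00). Comparisons against vehicle share the vehicle libraries.

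The wider matrix machinery was read from 3 further lists for the 8 libraries with panobinostat against the 8 without. Of 27 tested genes of collagen folding, hydroxylation and secretion, 2 were called lower and 0 higher, with a median of -0.16. Leprel2, a collagen prolyl hydroxylase gene, fell by 0.43 on the log2 scale (SE 0.09, edgeR adjusted p = 0.0158), from 64.6 ± 9.12 to 48.2 ± 6.40 CPM (SD, n = 8 each). Sparc, which encodes the collagen-binding protein osteonectin, fell by 0.43 (SE 0.09, edgeR adjusted p = 0.0129). In the combination against vehicle Creb3l1, a transcription factor gene of the secretory pathway, was called as well, falling by 0.65 (SE 0.14, edgeR adjusted p = 0.0171). Of 27 tested integrins and other matrix receptors, 0 were called by edgeR, with 2 higher and 2 lower at an unadjusted p under 0.05. Their median was -0.04. Of 53 other tested matrix genes, 1 was called higher and 1 lower, with a median of -0.21 and 18 lower against 1 higher at an unadjusted p under 0.05. Col10a1, a short-chain collagen gene, fell from 21.98 ± 9.53 to 8.28 ± 3.37 CPM (log2 -1.42, SE 0.24, edgeR adjusted p = 0.00352). Agrn, the basement membrane proteoglycan agrin, rose from 74.9 ± 16.5 to 103 ± 15.7 CPM (log2 0.46, SE 0.12, edgeR adjusted p = 0.0492) (SD, n = 8 each).

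Fibroblast markers were also mostly negative in the same comparisons. In whole tumours fewer cells of a type and less RNA per cell cannot be told apart. Of 11 fibroblast markers that are no members, 10 were negative with panobinostat averaged over trastuzumab, with a median of -0.27 and 1 called lower, Fap (log2 -0.49, SE 0.12, edgeR adjusted p = 0.0348). In the combination against vehicle 11 of 11 were negative, with a median of -0.37 and Prrx1 called lower. With trastuzumab alone 11 of 11 were also negative, with a median of -0.35 and 0 called by edgeR (3 lower at an unadjusted p under 0.05). The summed level of the list ran from 1620.3 to 3837 CPM in vehicle, 1661 to 3059.8 with trastuzumab, 1307 to 3355 with panobinostat and 1283 to 2816 with the combination, and no marker was at 0. With the fibroblast score as a covariate, an alternative added after the data were seen, 8 members were called for panobinostat averaged over trastuzumab. Eln, Fmod, Mfap4 and Col1a2 were among them, with log2 changes of -1.08 and -0.81 for Eln and Fmod. Nid1 and Pcolce were not: their log2 changes went from -0.57 and -0.50 to -0.31 (adjusted p = 0.0541) and -0.31 (adjusted p = 0.0701). The calls over all tested genes in that fit are not given here, so the count of 8 is not a result about the members. In a different comparison, panobinostat against vehicle, the fibroblast score took the calls over all tested genes from 30 to 277, in either direction.

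The other marker lists went different ways. Adipocyte markers had a median of 0.35 for panobinostat averaged over trastuzumab, with 9 of 11 positive and 0 called by edgeR (1 higher at an unadjusted p under 0.05). Their summed level ran widely in every group, from 1897 to 7428 CPM in vehicle, 1758 to 9170.0 with trastuzumab, 2049 to 10585 with panobinostat and 2372 to 8082 with the combination, with no marker at 0. With the adipocyte score as a covariate 10 members were called in this comparison, the 6 above and Col16a1, Fbln5, Ogn and Mfap2. The calls over all tested genes in that fit are not given here, so the higher count is not a result about the members. In a different comparison, panobinostat against vehicle, the adipocyte score took the calls over all tested genes from 30 to 242, in either direction. The median was 0.00 over 8 pericyte and smooth muscle markers, 0.02 over 10 endothelial markers, of which Vwf was called higher, and 0.09 over 9 macrophage markers. The summed levels of these lists were 601 to 756 CPM, 311 to 471 CPM and 4234 to 6168 CPM in vehicle, and 531 to 735 CPM, 355 to 487 CPM and 4250.2 to 6183 CPM over the libraries with panobinostat. T and B cell markers, which SCID hosts should lack, summed to 7.93 to 48.7 CPM over the 16 libraries. Mouse mammary epithelium and skeletal muscle markers summed to 573 to 962 CPM and 418 to 959 CPM, and any human reads among the keratin counts were not measured. All 5 tested neutrophil markers were negative for panobinostat averaged over trastuzumab, with a median of -1.37, and 4 were called lower: S100a8, S100a9, Cxcr2 and Retnlg. Of these, S100a8 went from 28.9 ± 7.64 to 11.6 ± 4.45 CPM (SD, n = 8 each, log2 -1.37, SE 0.19, edgeR adjusted p = 0.000885). The neutrophil list summed to 138 to 202 CPM in vehicle, 154 to 228 with trastuzumab, 102 to 142 with panobinostat and 90.5 to 120 with the combination, with Camp and Ly6g at 0 in the median library. The 7 tested NK cell markers had a median of 0.15, and Klrk1 was called higher (log2 1.30, SE 0.24, edgeR adjusted p = 0.00517). Their list summed to 17.0 to 31.4 CPM in vehicle, 20.5 to 88.6 with trastuzumab, 35.6 to 48.7 with panobinostat and 36.2 to 102 with the combination, with Klra8 at 0 in the median library. All 6 proliferation genes were positive, with a median of 0.46 and 0 called by edgeR (5 higher at an unadjusted p under 0.05). Their summed level was 186 to 338 CPM in vehicle, 185 to 332 with trastuzumab, 275 to 452 with panobinostat and 238 to 472 with the combination, with none at 0. Both tested skeletal muscle markers were negative, with a median of -0.28 and 0 called by edgeR (1 lower at an unadjusted p under 0.05). The part of these cell types in the members' changes was not tested. The covariate scores come from the same libraries, so those fits cannot separate fewer cells from less RNA per cell.

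**Figure D5:**
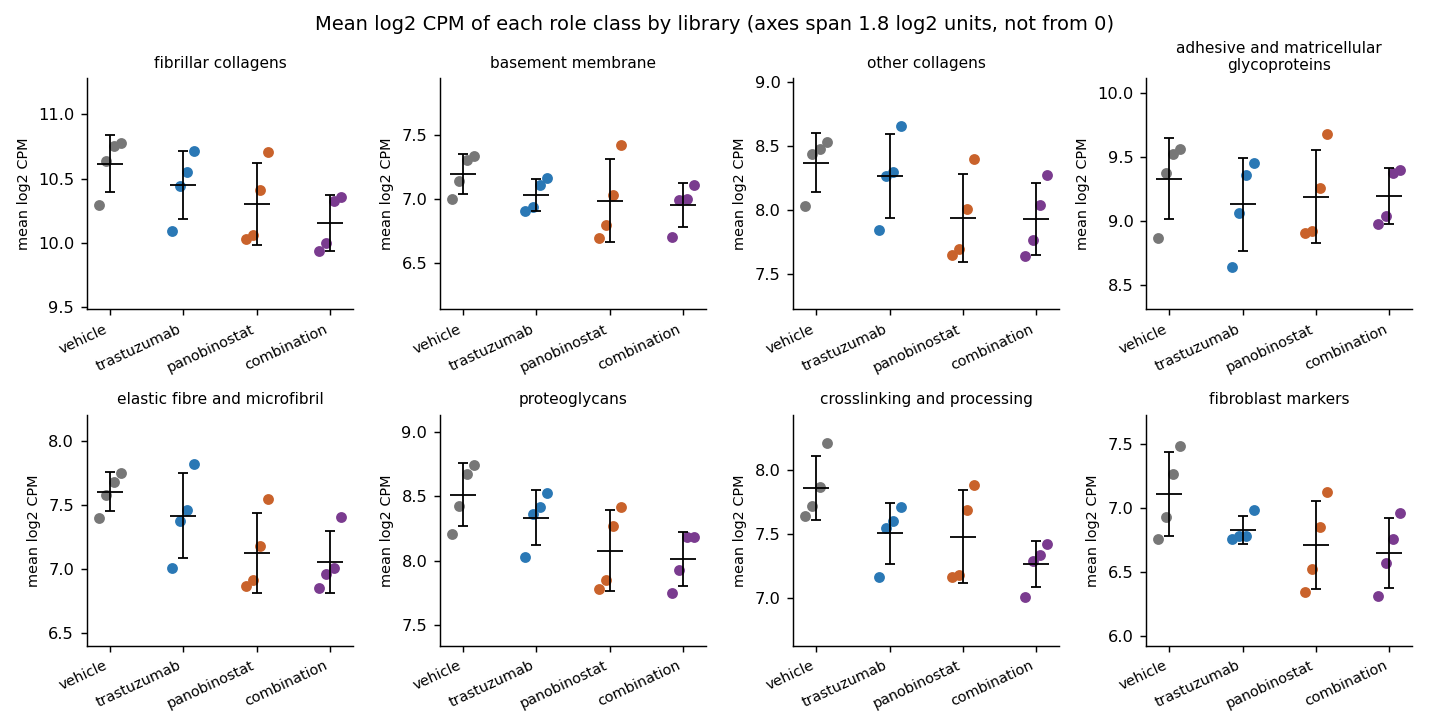
Mean log2 CPM of each role class of members and of the fibroblast markers, with 1 point per library and the mean and SD of 4 as a bar; every axis spans 1.8 log2 units and does not start at 0. The means with panobinostat and with the combination lie below the vehicle mean in every panel, by less than the spread of the points in most; panobinostat mouse 7 is the highest point of its group in every member panel.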

How the data were processed

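Each library came from 1 tumour of 1 mouse. The authors deposited a table of raw counts for mouse gene symbols, made with CASAVA 1.8.2, TopHat2 and HTSeq on the mm10 build per the submitters' processing notes. The sources used here do not give the counting options, the gene annotation or whether human reads were removed. In the deposited counts 1327 symbols held a dot in all 8 panobinostat-treated libraries; none is a member, and they were left out, leaving 23354 symbols. Library totals were 4848244 to 8140782 counts, and replicate pairs differed beyond sampling noise (chi-square per degree of freedom 4.32 to 37.0).

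All 16 libraries entered 1 edgeR 4.0.16 quasi-likelihood fit in R 4.3.3, with 1 mean per group, TMM scaling and filterByExpr (15610 genes, common biological coefficient of variation 0.183). Benjamini-Hochberg adjustment ran over all tested genes, and a gene was called at an adjusted p under 0.05. The SE was derived from the F statistic (size of the log2 change over the root of F). CPM in single libraries are TMM-scaled; list scores are mean log2 CPM with a prior count of 2. There were 8 comparisons: 5 between groups, each drug averaged over the other, and the interaction. The script was tested on simulated counts. Exon overlaps and lengths come from GENCODE M21 (mm10) and promoters from RefSeq (GRCm38.p6).

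The members, lists and tests were chosen with earlier results of these data known. Described in full are the members called in any comparison, the member of smallest p in each role class for panobinostat averaged over trastuzumab and for the combination against vehicle, and Col1a1, Fn1, Postn, Tnc, Lox and Col4a1, 15 in all. Other genes are up to 3 called ones of each pathway list. Members named beyond these were chosen after their values were seen. Alternatives were DESeq2 1.42.0, limma voom (limma 3.58.1), total-count scaling, no filter, only the groups compared, an adipocyte score as covariate and each library left out; a fibroblast score as covariate and totals over all listed symbols were added after the data were seen.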

Additional observations from a re-analysis of the deposited data

Results flagged for a closer look

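In 2 of 60 pairs of a fully described member and a group, the highest or lowest of the 4 libraries stood far from the others by Dixon's criterion at its 95% level. Chance alone flags about 1 in 20 such groups. Fmod was 54.6 CPM in panobinostat mouse 13, against 80.6 to 83.5 CPM in the other panobinostat mice (gap over range 0.899). Lox was 204 CPM in trastuzumab mouse 12, against 358 to 383 CPM in its group (gap over range 0.86). No member differed between groups by the test of the interaction.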

How the results depend on the processing

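For panobinostat averaged over trastuzumab the count of members called was 6. It ran from 6 to 10 under the alternatives, with 10 for an adipocyte score covariate and 8 for a fibroblast score covariate. When each library was left out in turn it ran from 3 to 10. For the combination against vehicle the count was 1, and it was 8 by DESeq2, 2 by limma voom, 2 in a fit of only these groups, 8 with the adipocyte score and 4 with the fibroblast score, with 1 to 4 when each library was left out. For the combination against trastuzumab the count was 1, and it was 2 by DESeq2 and with the fibroblast score, 0 with total-count scaling, limma voom or only these groups, and 0 to 1 when each library was left out. For panobinostat against vehicle the count of 0 became 2 (Fmod and Nid1) with the adipocyte score and 1 (Fmod) with the fibroblast score. Over all 15610 tested genes the calls in this comparison also rose, from 30 to 242 with the adipocyte score and 277 with the fibroblast score. They were 154 by DESeq2, so member counts under different settings are not on one scale. The counts of 0 for trastuzumab alone, trastuzumab added to panobinostat, trastuzumab averaged over panobinostat and the interaction were 0 under every alternative run. The median log2 change of the members for panobinostat averaged over trastuzumab stayed between -0.28 and -0.19 under the alternatives and between -0.37 and -0.21 when each library was left out. Postn had a value near 0 whose sign turned: it was 0.0201 with total-count scaling, 0.0292 by limma voom, 0.00490 with no filter on low counts, 0.0835 with the adipocyte score and 0.00281 with totals over all listed symbols, and ran from -0.113 to 0.0698 when each library was left out. Tnxb turned to 0.20 with the fibroblast score. The cause was not tested. No paired analysis was possible because each mouse number occurs once over the 16 libraries. With 4 mice a group, the precision is limited by the spread between mice. The lowest member count in a library was 88, so sampling noise adds to that spread for the lowest members.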
